A study of Mus musculus with 8 samples.

Results

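The myeloid genes described here were a set of 10, Tyrobp, Fcer1g, C1qa, C1qb, C1qc, Csf1r, Cd68, Lyz2, S100a8 and S100a9. Each was taken as the array's transcript cluster (the set of probes that reports on a gene) whose annotation named that gene alone. All 10 were found, each with 1 cluster, among 21789 clusters that carried exactly 1 gene symbol. They were read as 5 macrophage genes (C1qa, C1qb, C1qc, Csf1r and Cd68), 2 neutrophil genes (S100a8 and S100a9) and 3 genes that both cell types use (Tyrobp, Fcer1g and Lyz2).

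The samples were olfactory mucosae from 8 newborn mice of a mixed 129 x C57BL/6J background at postnatal day 1, with 1 array per sample, each taken as 1 mouse. The 4 knockouts were OmpCre:Emx2(fl/fl), in which Cre recombinase made from the Omp locus can delete both floxed copies of Emx2, a homeodomain transcription factor gene, in mature olfactory sensory neurons (OSNs). Of the 4 control littermates, controls 1 to 3 were OmpCre:Emx2(fl/+), so that they too carried Cre and a floxed copy of Emx2, while control 4, an Emx2(fl/fl) mouse, had no Cre. The study compared the groups to learn what Emx2 does for odorant receptor expression in OSNs. By its account the Emx2 locus was recombined with success in this strain. The study also states that OmpCre fell short of full efficiency at a reporter transgene and at Lhx2. Replicate numbers only name the mice and pair none of them. The labels name neither litter nor sex, and by the study's methods both sexes were used and litters contributed mice to both groups.

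Macrophages live in most tissues and clear dying cells, a constant task in the olfactory epithelium, where neurons turn over through life. Neutrophils are short-lived cells that circulate in the blood and enter a tissue when it is injured or infected. C1q, the recognition molecule of the classical complement pathway, is built from the products of C1qa, C1qb and C1qc, and macrophages are its main source. S100A8 and S100A9 pair to form calprotectin, one of the most abundant proteins of the neutrophil cytosol. The whole mucosa was used, so a lower signal of a myeloid gene cannot tell fewer cells from less RNA per cell.

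The promoter sequences of the C1q and calprotectin genes are shown because the members of each group varied together between mice. RefSeq (GRCm38.p6) gave the bases before the annotated start for 7 of the 10 genes, and C1qa, Csf1r and Tyrobp had no entry in the table used. Each sequence below is the 250 bases just before the start, read 5′ to 3′ on the gene's strand. The windows lie at chr3:90668821-90669070 on the plus strand for S100a8 and at chr3:90695722-90695971 on the minus strand for S100a9. Those of C1qb and C1qc lie at chr4:136886201-136886450 and chr4:136892915-136893164, both on the minus strand. Capitals mark the core GAGGAAG or its reverse complement, which is recognised by PU.1, the master regulator of myeloid cells, and the TATA box letters TATAAA.

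S100a8: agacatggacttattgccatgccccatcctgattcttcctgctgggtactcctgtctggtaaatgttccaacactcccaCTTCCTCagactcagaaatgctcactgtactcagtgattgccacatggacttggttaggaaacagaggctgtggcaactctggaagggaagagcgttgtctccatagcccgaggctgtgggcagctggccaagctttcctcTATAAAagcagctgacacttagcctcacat
S100a9: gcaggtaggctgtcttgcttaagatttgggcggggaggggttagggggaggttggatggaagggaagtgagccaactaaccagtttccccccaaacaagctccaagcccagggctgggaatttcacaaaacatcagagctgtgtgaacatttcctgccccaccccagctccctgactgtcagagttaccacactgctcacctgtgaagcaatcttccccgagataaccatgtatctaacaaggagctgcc
C1qb: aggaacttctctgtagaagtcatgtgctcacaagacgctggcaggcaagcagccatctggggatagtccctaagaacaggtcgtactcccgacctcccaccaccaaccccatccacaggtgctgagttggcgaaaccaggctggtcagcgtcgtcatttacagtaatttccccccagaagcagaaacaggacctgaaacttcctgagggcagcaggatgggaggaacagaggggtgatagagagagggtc
C1qc: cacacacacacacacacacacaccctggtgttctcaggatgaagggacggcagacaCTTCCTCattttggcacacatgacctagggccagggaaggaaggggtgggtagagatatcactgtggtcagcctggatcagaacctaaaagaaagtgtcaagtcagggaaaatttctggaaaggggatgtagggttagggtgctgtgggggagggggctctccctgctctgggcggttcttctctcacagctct

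S100a8 and S100a9 lie close together on chromosome 3, and C1qb and C1qc on chromosome 4. Both strands of each window were searched. GAGGAAG was found in 2 of the 7 promoters, those of S100a8 and C1qc, and in 10.6% of 32817 promoters of the same length. TATAAA was found in the S100a8 window alone, 30 bases before the start, against 12.4% of all promoters. The C/EBP palindrome TTGCGCAA was in 0 of the 7 (0.165% of all). Its looser form TTGNNNAA, which contains the palindrome's outer letters and is left in lower case, was in 4 of the 7 (C1qb, Cd68, S100a9 and Lyz2) and in 33.3% of all. These are matches of letters in a short window and not binding sites.

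Array medians ranged from 8.64 to 8.68 on the log2 scale, which is the scale of every signal and difference below. Emx2 itself read 10.83, 10.74, 10.58 and 10.89 in controls 1 to 4 and 10.25, 10.14, 10.34 and 10.14 in knockouts 1 to 4, so that the groups did not overlap. Its difference was -0.55 ± 0.08 (SE, n = 4 and 4; limma adjusted p = 0.201). The mucosa's own markers were measured throughout, with Omp (mature OSNs) between 12.56 and 13.43 and Cbr2 (sustentacular cells) between 13.94 and 14.17. Control 2 stood apart on the first principal component, at 32.87 where the other 7 arrays lay between -11.83 and 6.11, and this component held 32.5% of the variance. Control 2 is a labelled control and was kept, and group differences of named genes are also given without it where they move by over 1.5 times, in the text or in the ranges of the closing section. The sex-linked genes Xist and Eif2s3y gave mixed signals in controls 1, 3 and 4. Xist read 10.30 and 10.35 in controls 3 and 4, between its levels of 6.997 and 8.08 in knockout 3 and control 2 and 13.41 to 13.52 in the rest, while Eif2s3y, which is Y-linked, read 11.12 and 11.23 there. Control 1 had the high Xist level of 13.47 with an Eif2s3y signal of 8.61, above the 7.35 to 7.75 of knockouts 1, 2 and 4. Whether each of these arrays holds RNA of a single mouse was not tested, so n counts arrays as labelled. Y-linked signal was not balanced between controls and knockouts, and its values are given in the last section.

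Control 2 had the highest signal of the 8 mice for all 10 myeloid genes, whereas it was highest for 13.3% of all clusters. The neutrophil genes stood out more in this mouse than the macrophage genes did. S100a8 read 8.31, 10.31, 8.13 and 8.20 in controls 1 to 4 and 8.28, 8.31, 8.24 and 7.89 in knockouts 1 to 4. S100a9 read 8.71, 10.54, 8.40 and 8.44 in the controls and 8.34, 8.75, 8.59 and 8.25 in the knockouts. Control 2 lay 2.06 above the median of the other 7 mice for S100a8 and 2.10 above it for S100a9, or 4.18-fold and 4.29-fold. Larger gaps were found in 0.234% and 0.22% of clusters. The other 7 mice differed little, with an SD of 0.15 for S100a8 and 0.19 for S100a9.

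**Figure D1:**
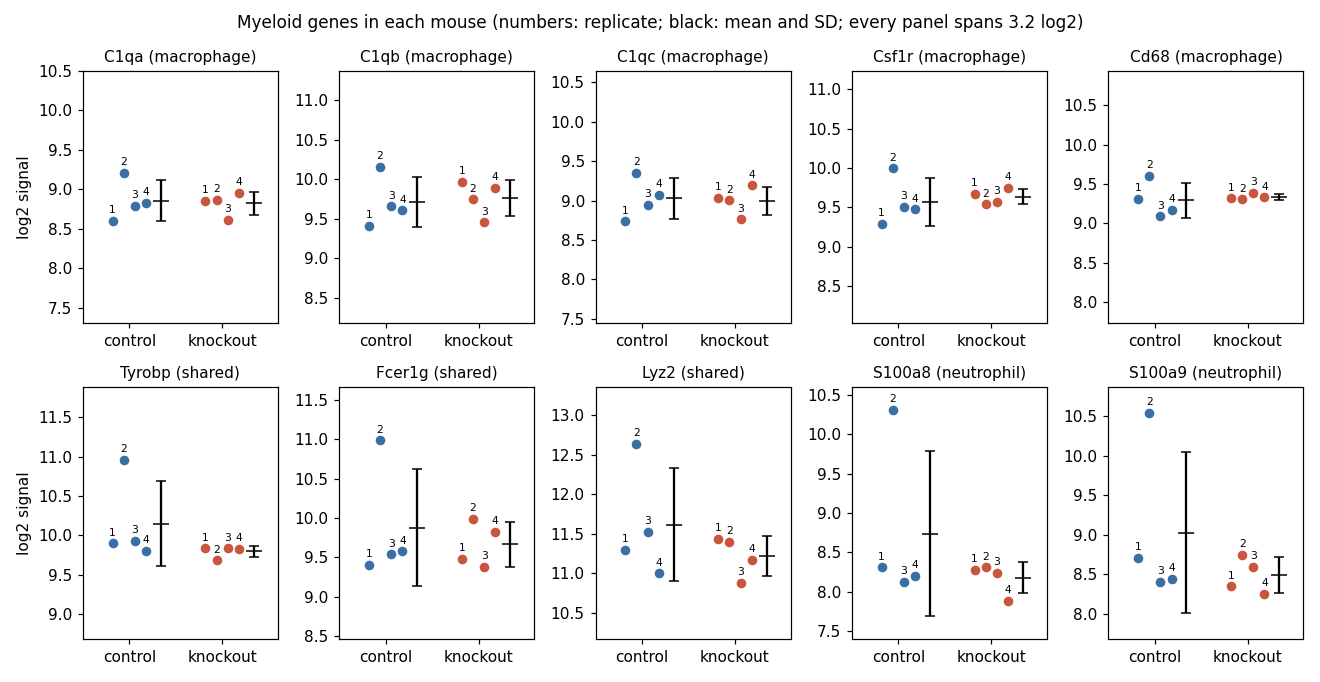
Log2 signal of the 10 myeloid genes (vertical axes, each spanning the same distance) in the 4 control mice (blue) and 4 knockout mice (red), with the replicate number above each point and the group mean ± SD in black. Control 2 is the highest point in every panel, and its gap to the other mice is wide for S100a8 and S100a9 and narrow for Cd68.

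The shared myeloid genes followed the same order with smaller gaps. Tyrobp encodes DAP12, the membrane adaptor through which receptors such as TREM2 signal. It read 9.90, 10.96, 9.93 and 9.81 in the controls and 9.84, 9.69, 9.84 and 9.83 in the knockouts. Apart from control 2 the Tyrobp signals were tightly packed, with an SD of 0.08 over 7 mice, and control 2 lay 1.12 (2.17-fold) above their median. Fcer1g encodes the gamma chain shared by several Fc receptors. It read 9.41, 10.99, 9.54 and 9.58 in the controls and 9.48, 9.99, 9.38 and 9.83 in the knockouts. Knockouts 2 and 4 were thus the next highest mice, and control 2 lay 1.45 (2.73-fold) above the median of the others. Lyz2, the lysozyme gene of macrophages and neutrophils, read 11.30, 12.64, 11.52 and 10.999 in the controls and 11.44, 11.40, 10.88 and 11.17 in the knockouts. Control 2 lay 1.34 (2.54-fold) above the median of the other mice, and the remaining controls and knockouts overlapped.

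The macrophage genes placed control 2 above the median of the other mice by 0.29 to 0.50. Its gap to the next highest mouse was between 0.16 (C1qc) and 0.26 (C1qa). C1qb read 9.41, 10.16, 9.66 and 9.61 in the controls and 9.97, 9.75, 9.45 and 9.89 in the knockouts. C1qa read 8.60, 9.21, 8.79 and 8.83 in the controls and 8.85, 8.87, 8.62 and 8.95 in the knockouts. C1qc read 8.74, 9.35, 8.95 and 9.07 in the controls and 9.03, 9.004, 8.76 and 9.19 in the knockouts. In all 3 chains of C1q, control 1 was the lowest mouse and knockout 3 the next lowest, and the groups overlapped. Csf1r, the receptor for the growth factor that macrophages need to survive, read 9.29, 9.997, 9.51 and 9.48 in the controls and 9.67, 9.54, 9.57 and 9.75 in the knockouts. Cd68, a glycoprotein of macrophage lysosomes, read 9.31, 9.60, 9.09 and 9.17 in the controls and 9.32, 9.30, 9.38 and 9.33 in the knockouts. The 4 knockouts differed by less in Cd68 than the controls did, with an SD of 0.04 against 0.22, or 0.11 over the 3 controls other than control 2. No test of these SDs was made.

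The spread between mice of one group was wide for the neutrophil genes and for the shared genes. The SD within groups, pooled over both, was exceeded by 0.468% of clusters for S100a8 and by 0.491% for S100a9. For the shared genes the figure was 0.973% for Fcer1g, 1.09% for Lyz2 and 2.54% for Tyrobp. The macrophage genes were less variable, from 5.71% of clusters with a larger SD for C1qb to 19.6% for Cd68. Over the 7 mice without control 2, between 6.97% (Lyz2) and 63.2% (Tyrobp) of clusters had a larger SD than a myeloid gene, and S100a8 was no longer among the most variable, with 20.0% above it.

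Each gene was then centred on its mean over the 8 mice and averaged within its set, to compare macrophage with neutrophil genes mouse by mouse. Control 2 was at 0.36 for the macrophage genes, 1.14 for the shared genes and 1.82 for the neutrophil genes. The other mice ranged from -0.23 (control 1) to 0.12 (knockout 4) for the macrophage genes and from -0.54 (knockout 4) to -0.08 (knockout 2) for the neutrophil genes. Knockout 4 was therefore highest of these 7 for one set and lowest for the other. Between a macrophage and a neutrophil gene, the median Pearson r over 10 pairs was 0.65 with all 8 mice and -0.60 over the 7 mice without control 2 (range -0.69 to 0.26). Between macrophage genes it was 0.86 with all mice and 0.70 without control 2. Every gene was read from the same 8 arrays, so these pairs share their samples.

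**Figure D2:**
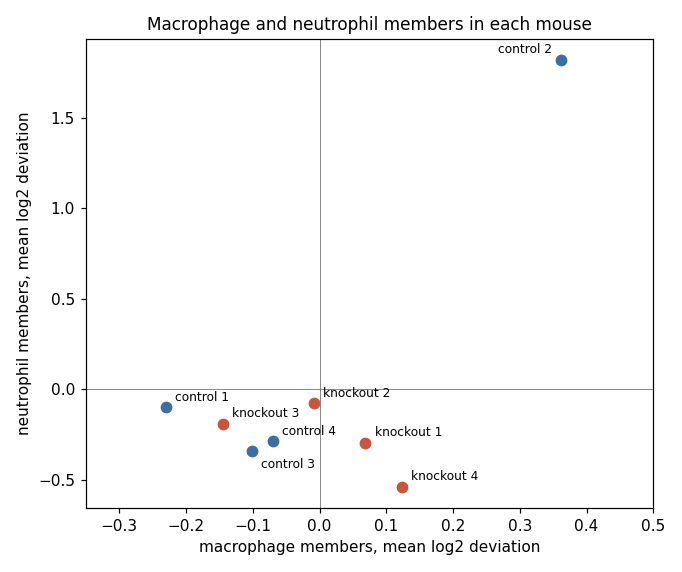
Mean log2 deviation of the 5 macrophage genes (horizontal axis) and of the 2 neutrophil genes (vertical axis) in each mouse, each gene centred on its mean over the 8 mice, with controls in blue and knockouts in red. Control 2 stands alone at 0.36 and 1.82, and knockout 4 is the rightmost and lowest of the remaining points.

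Chains of one complex varied closely together. C1qa and C1qc gave r = 0.978 over the 8 mice (exact permutation p = 2.73e-04, adjusted p = 0.0123 over 45 pairs), with Spearman's rho = 0.905 (exact permutation p = 0.00456, adjusted p = 0.103). Without the 2 mice farthest from the median of C1qa, r was 0.963, and without control 2 it was 0.976. S100a8 and S100a9 gave r = 0.988 (exact permutation p = 0.00151, adjusted p = 0.017) and rho = 0.857 (exact permutation p = 0.0107, adjusted p = 0.121). Their r was 0.637 without the 2 mice farthest from the median of S100a8 and 0.744 without control 2. Tyrobp and Fcer1g, adaptors of the same kind of receptor, gave r = 0.855 with all mice (exact permutation p = 0.118, adjusted p = 0.148), with rho = -0.095 (exact permutation p = 0.84, adjusted p = 0.968). That relation rested on control 2, since r was -0.259 without the 2 farthest mice and -0.72 without control 2. Cd68 went least with the C1q genes, with r from 0.412 to 0.521 and from -0.22 to 0.021 without control 2.

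The genes whose signals ran most like each set were named over the 8 mice, as a description. For the macrophage mean these were C3ar1 (r = 0.963, a receptor for a complement fragment), Ehbp1l1, Pgk1 (3 clusters with nearly equal values), Ifi207, Rras and Ncoa3. C3ar1 kept r = 0.908 without control 2. With group means removed they were Pld4, Ripor2, Tlr13, Laptm5, Cd151, Ms4a6d, Slc2a6 and Itih4. Of these, Cd151 and Itih4 had r of 0.756 and 0.604 over the 8 mice with group means kept. In that measure their r without control 2 was 0.178 and -0.097. For the neutrophil mean the closest were Mcemp1 (r = 0.990), Olr1, Slfn4, 2210407C18Rik, Lyst, Tnfsf9, Tspan14 and Plek, and Lpgat1 and Slc5a9 joined with group means removed. These rankings include control 2. Ranked over the 7 mice without it, the 8 genes named for each set shared 0 with those above, led by Crisp2 (r = 0.981) for the macrophage mean and Olfr1477 (r = 0.992) for the neutrophil mean. Without control 2, r for the neutrophil genes named first fell to between 0.520 (Plek) and 0.863 (Lyst, a gene of lysosome traffic that is mutated in Chediak-Higashi syndrome).

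Other genes of the same cells and pathways showed which parts of the myeloid programme went with control 2. These lists overlap in a few genes, such as Il1b, Trem1 and Cd14. Control 2 was highest for 16 of 27 other neutrophil genes, 21 of 30 other macrophage and monocyte genes, 19 of 22 receptors and kinases that work with Tyrobp and Fcer1g, and 18 of 20 genes of macrophage activation and cytokines. It was also highest for 7 of 11 antigen presentation genes, 9 of 15 genes of the complement pathway around C1q, 7 of 10 genes of Csf1r signalling (Csf1r included) and 6 of 8 genes of the receptors and signalling of S100A8 and S100A9. Osteoclasts, the bone-resorbing relatives of macrophages, went otherwise, with control 2 highest for 1 of 12 genes and lowest for 3, and a median of -0.18 against the other mice. The share highest in control 2 over all clusters was 13.3%, and the share lowest there was not computed.

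The 4 widest gaps of control 2 above the other mice, among the genes of all lists, were in cytokine genes, named after their values were seen. In the other direction, Xist stood at -5.33 in control 2 against the median of the other 7 mice. Ccl3, a chemokine that draws in neutrophils and monocytes, read 13.07 in control 2 and between 7.49 and 8.05 in the other 7 mice. Cxcl2, a neutrophil attractant, read 10.89 in control 2 and no more than 6.47 in the others. Il1a and Il1b, the genes of interleukin-1, read 10.04 and 11.24 in control 2 and no more than 6.45 and 7.64 in the others. Next widest above the median of the other mice were Cd177 (3.04, a neutrophil surface protein) and Cd74 (2.98, the MHC class II invariant chain). Clec4e (2.93, a receptor that signals through the Fcer1g product) and Trem1 (2.88, a receptor that signals through the Tyrobp product) followed. After them came Cxcr2 (2.68, a neutrophil chemokine receptor). Cd177 was also raised in control 3, at 11.25 against 12.76 in control 2 and 9.33 to 10.44 in the other mice.

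Control 2 was highest for 16 of the 27 other neutrophil genes, with a median gap of 0.68 to the other mice. Several genes of that list were not high in control 2, and these too were picked out after their values were seen. They are not all of the list's granule genes. Elane, Mpo and Ctsg encode proteins of the primary granules, which are made early in neutrophil development, and Ngp and Camp encode proteins of secondary granules. Control 2 lay within 0.40 of the median of the other mice for these 5, and below it for Elane (-0.28), Ngp (-0.40), Camp (-0.16) and Mpo (-0.01). Their highest signal was in knockout 2, at 8.36 for Elane, 8.13 for Mpo, 7.14 for Ctsg, 9.85 for Ngp and 7.89 for Camp. After control 2, knockout 2 was also the highest mouse for S100a9, at 8.75 against 8.71 in control 1. For S100a8 it was level with control 1, at 8.31. Padi4, an enzyme of mature neutrophils, was not high in control 2 either, at 0.09 above the median.

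The macrophage and monocyte genes covered a wide range in control 2, and all those named here were chosen after their values were seen. Cd14, Cd33 and Itgam were 2.44, 2.10 and 1.57 above the median of the other mice. Adgre1, an adhesion receptor gene of macrophages, was 0.68 above it, Aif1 0.39 and Cx3cr1 0.15. For Mrc1, Cd163, Lyve1, Folr2, Vsig4 and Timd4, picked out after their values were seen, control 2 lay between 0.25 below and 0.09 above that median. Mrc1, the mannose receptor gene, was highest in knockout 4 at 9.64, the mouse that was also next highest after control 2 in C1qa, C1qc and Csf1r.

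**Figure D3:**
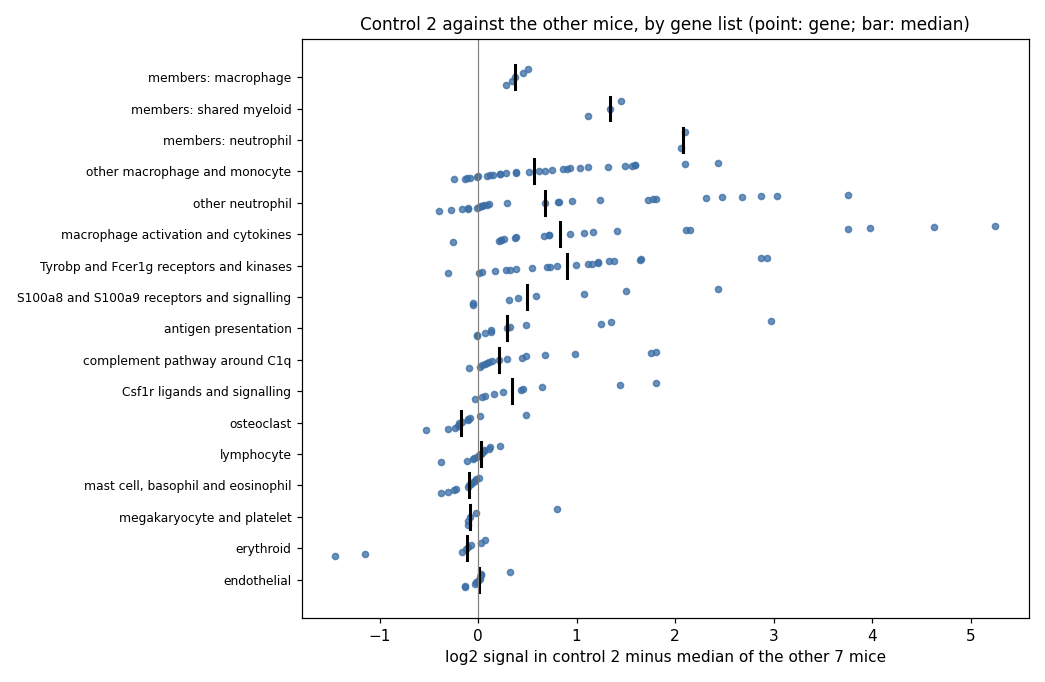
Log2 signal in control 2 minus the median of the other 7 mice (horizontal axis) for each gene of the myeloid sets and of other lists of cell types and pathways, with a point per gene and a black bar at the list's median. The medians are 2.08 for the neutrophil members, 1.34 for the shared members and 0.38 for the macrophage members, and those of the lymphocyte and endothelial lists are 0.03 and 0.01.

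Markers of other cells that a dissected mucosa can hold were read beside these results. The lymphocyte genes (13 measured) were highest in control 2 for 1 gene, the mast cell, basophil and eosinophil genes (11) for 0, the megakaryocyte and platelet genes (5) for 0, the erythroid genes (8) for 0 and the endothelial genes (10) for 0. Centred means of the erythroid list ranged from -0.35 in control 2 to 0.33 in control 1. Control 2 was lowest for 4 of the 8 erythroid genes, with a median gap of -0.11 to the other mice. Alas2, an erythroid gene picked out after its values were seen, stood at -1.45 there. Among epithelial lists, control 2 was highest for 3 of 9 sustentacular and gland genes, with a median gap of 0.10 to the other mice. The counts were 2 of 6 for horizontal basal cell genes (median gap 0.24) and 2 of 7 for respiratory ciliated genes (0.02). They were 1 of 19 for mature OSN genes and 1 of 12 for immature OSN genes. These lists are short to set against the share of 13.3%. Control 2 was lowest of the 8 mice for all 8 genes of progenitors and cell division and for 7 of 11 cartilage and bone genes. The part of these genes in the myeloid signals was not tested, and the share of all clusters lowest in control 2 was not computed. Mature OSN genes were at 0.00 in control 2 and between -0.16 and 0.21 in the other mice.

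Knockouts and controls were then compared, to see whether myeloid genes differed when Emx2 could be deleted in mature OSNs. None of the 10 myeloid genes passed limma at an adjusted p under 0.05, against 0% of all clusters (0 of 21789, with a smallest adjusted p of 0.0653). At an unadjusted p under 0.05 the counts were 0 of the 10 genes and 5.17% of clusters. The 4 knockouts and 4 controls overlapped in all 10 genes, whereas they did not overlap in 3.10% of clusters. The methods' t-test also gave 0 of the 10 genes at p under 0.05, and 1081 clusters of which 0 passed after adjustment.

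The neutrophil and shared genes had the largest differences and the widest errors. S100a8 averaged 8.74 ± 1.05 (SD, n = 4) in controls and 8.18 ± 0.20 (SD, n = 4) in knockouts, a difference of -0.56 with a 95% interval from -1.57 to 0.46 (limma adjusted p = 0.91). S100a9 differed by -0.54 (95% interval -1.54 to 0.46, limma adjusted p = 0.91). Without control 2 these differences were -0.03 for both genes, with intervals from -0.28 to 0.22 and from -0.34 to 0.27. Tyrobp differed by -0.35 ± 0.23 (SE; limma adjusted p = 0.91), Lyz2 by -0.40 ± 0.32 (adjusted p = 0.91) and Fcer1g by -0.21 ± 0.33 (adjusted p = 0.95). Without control 2 they were at -0.08, -0.05 and 0.16, so that the sign of Fcer1g turned.

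The macrophage genes were nearly level between the groups. C1qa differed by -0.04 ± 0.13 (SE; limma adjusted p = 0.98) and C1qc by -0.03 ± 0.13 (adjusted p = 0.985). C1qb differed by 0.06 ± 0.17 (adjusted p = 0.973), Cd68 by 0.04 ± 0.10 (adjusted p = 0.97) and Csf1r by 0.06 ± 0.14 (adjusted p = 0.961). The 95% interval of Cd68, from -0.19 to 0.27, was the narrowest of the 10. The signs of C1qa and C1qc turned when the arrays were scaled to mature OSN genes and when arrays were weighted by their quality. They also turned without control 2, and without knockout 3 (0.03 and 0.05).

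Without control 2, the difference of Csf1r was 0.21 ± 0.08 with a 95% interval from 0.03 to 0.38 (limma adjusted p = 1.00). It was 1 of the 10 genes at an unadjusted p under 0.05, where 4.53% of clusters were. Cd68 followed at 0.14 and C1qb at 0.21, and no cluster passed after adjustment.

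**Figure D4:**
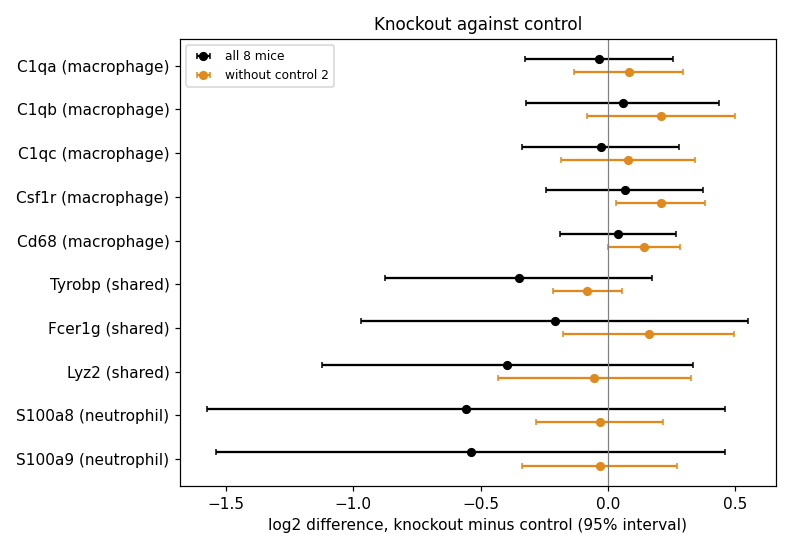
Log2 difference of knockouts minus controls (horizontal axis) with its 95% interval from limma for each myeloid gene, with all 8 mice (black) and without control 2 (orange). With all mice every interval crosses 0, and without control 2 the differences of S100a8, S100a9, Tyrobp and Lyz2 lie between -0.08 and -0.03.

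As a set, 7 of the 10 genes had a lower mean in knockouts, against 48.6% of all clusters, and 4 of 10 without control 2, against 49.4%. The median difference of the 10 genes was -0.12 and 0.08 without control 2, where that of all clusters was 0.00 in both cases. By set, the medians were 0.04 for the macrophage genes, -0.35 for the shared genes and -0.55 for the neutrophil genes. Without control 2 they were 0.14, -0.05 and -0.03. The study scaled its values to a far longer list of mature OSN mRNAs, by the mean difference between groups. When each array was instead scaled to the 19 mature OSN genes measured from the list used here, the median of all clusters moved to 0.12 and the macrophage genes stood at 0.16 and the neutrophil genes at -0.43.

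The other myeloid lists gave 0 genes past an adjusted p under 0.05, with limma as above. The other macrophage and monocyte genes had 24 of 30 lower in knockouts, and 9 of 30 without control 2. The corresponding counts were 20 of 27 and 14 of 27 for other neutrophil genes, 20 of 22 and 10 of 22 for Tyrobp and Fcer1g receptors and kinases, and 17 of 20 and 9 of 20 for activation and cytokine genes. For the complement genes they were 11 of 15 and 6 of 15, for Csf1r signalling 6 of 10 and 3 of 10, for the S100A8 and S100A9 receptors 6 of 8 and 4 of 8, and for antigen presentation 10 of 11 and 8 of 11. Of the 12 osteoclast genes, 3 were lower with control 2 and 3 without it.

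Among these lists the gene with the smallest p was named in each. Plac8, which is made in monocytes and granulocytes, read 8.09, 8.51, 8.06 and 8.12 in controls and 7.81, 7.83, 7.73 and 7.89 in knockouts. Its groups did not overlap, and the difference was -0.38 ± 0.10 (SE; limma adjusted p = 0.739) or -0.27 without control 2. Padi4, the enzyme that citrullinates histones in neutrophils, read between 6.75 and 6.83 in controls and between 6.44 and 6.72 in knockouts, with a difference of -0.23 ± 0.06 (limma adjusted p = 0.739). H2-Eb1, a chain of MHC class II, also had groups that did not overlap, with a difference of -0.24 ± 0.08 (limma adjusted p = 0.876). Ctsk, the collagenase of osteoclasts, differed by 0.35 ± 0.12 (limma adjusted p = 0.91). In the remaining myeloid lists these genes were Cd36 with a difference of 0.28, Ptpn6 with -0.12, Cfb with -0.58, Ccl4 with -0.23 and Dok2 with -0.08, each with a limma adjusted p of 0.91. Without control 2 the difference was -0.22 for Cfb, -0.07 for Ccl4 and -0.07 for Ptpn6.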

How the data were processed

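RNA from 8 olfactory mucosae was hybridised by the authors to Affymetrix Mouse Gene ST arrays, 1 array per sample. The values deposited by the authors are on the log2 scale, 1 per transcript cluster. They were made with Affymetrix Expression Console, according to the submitters' processing notes, and the version and algorithm are not given in the sources read. Values ran from 2.65 to 14.86 with array medians within 8.64 to 8.68, so they were not normalized again. The number of arrays limits the precision.

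Of 35557 clusters, 21789 had exactly 1 gene symbol in the platform annotation and entered the fit, 1621 had several and 12147 were unnamed here. Symbols were checked against the RefSeq gene table of GRCm38.p6 (21698 found, 0 changed). The array build is not named, so coordinates are given only for RefSeq promoters. Where a gene had several clusters, the one with the highest mean was used.

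Groups came from the phenotype labels, 4 controls and 4 knockouts. They were compared with limma 3.58.1 in R 4.3.3 (lmFit and eBayes, two-sided, without covariates), with Benjamini-Hochberg adjustment over all 21789 clusters at 0.05. limma replaced the t-test of the study's methods, which was run as an alternative. The fit was tested on simulated data. Replicates are separate mice by the study's account. Correlations used two-sided exact permutation over the 8 mice.

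The members and lists were chosen with earlier results of these data known. Besides the members, the text names for each list the gene with the smallest limma p, and for the macrophage and neutrophil means the 8 clusters with the highest Pearson r, with and without group means. Genes named beyond that are said to be chosen after their values were seen, other than Emx2, Omp and the leading genes of the rankings without control 2. Alternatives were quantile normalization, scaling each array to the 19 measured mature OSN genes (not the study's longer list), a filter at the median signal, all clusters, array weights, the methods' t-test, the Y-linked signal as a covariate, averaging a gene's clusters and leaving out each mouse. Correlations without control 2 were added after the data were seen.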

Additional observations from a re-analysis of the deposited data

Results flagged for a closer look

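Within each group of 4 mice, the gap between the highest or lowest mouse and its nearest neighbour was divided by the range of the group and set against Dixon's 95% critical value. Of 78 groups examined, 15 passed, where chance flags about 5% of groups; over all clusters 6.15% of control groups and 5.78% of knockout groups passed, and 1.37% of control groups did so with control 2 as the highest mouse. Of the myeloid genes, 4 passed in the controls, each with control 2 highest, at 0.917 for S100a8, 0.856 for S100a9, 0.892 for Tyrobp and 0.893 for Fcer1g. The mean of the neutrophil genes passed in the same way at 0.887, that of the shared genes at 0.855 and that of all 10 genes at 0.95. Plac8 (0.862) and Ccl4 (0.876) also passed with control 2 highest.

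In the knockouts, S100a8 passed at 0.834 with knockout 4 lowest (7.89 against 8.24 to 8.31), and Tyrobp at 0.98 with knockout 2 lowest (9.69 against 9.83 to 9.84). Among the other genes named, Cbr2 passed with knockout 1 lowest (0.888). The sex-linked genes passed as well, with Eif2s3y at 0.948 (control 1 lowest) and 0.899 (knockout 3 highest) and Xist at 0.983 (knockout 3 lowest).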

How the results depend on the processing

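No paired analysis was possible because the replicate numbers were given in accession order and litters are not named. Over 16 alternatives, the 10 genes gave 156 differences, of which 142 kept their sign, 14 turned and 0 passed an adjusted p under 0.05 (smallest 0.622, in limma or the methods' t-test). Signs turned under scaling to mature OSN genes for C1qa (0.0838), C1qc (0.0903), Dok2 (0.0362), Hbb-y (0.0764) and Cbr2 (0.0432), under array weights for C1qa (0.0101) and C1qc (0.017), and for Xist with the Y-linked covariate (-1.90). Leaving out 1 mouse at a time gave ranges that cross 0 for C1qa (-0.123 to 0.0813), C1qb (-0.0418 to 0.207), C1qc (-0.126 to 0.0791), Csf1r (-0.027 to 0.207), Cd68 (-0.0282 to 0.141), Fcer1g (-0.366 to 0.16) and Hbb-y (-0.0782 to 0.0025). The medians then ran from -0.25 to 0.08 for the 10 genes, from -0.04 to 0.14 for the macrophage genes and from -0.75 to -0.03 for the neutrophil genes, each highest without control 2. The number of the 10 genes lower in knockouts ran from 4 (without control 2) to 9, and that at an unadjusted p under 0.05 from 0 to 1 (Csf1r, without control 2). The filter at the median signal kept 6 of the 10 genes, 3 of them lower, and gave no value for C1qa, C1qc, S100a8 and S100a9. The count of all clusters past an adjusted p under 0.05 was 5 under scaling to mature OSN genes, 5 under array weights, 2 under the filter, and 0 to 1 without 1 mouse (1 without control 3). Array weights were lowest for control 2 (0.665). The median r between macrophage and neutrophil genes was -0.60 and that of S100a8 with S100a9 0.744 without control 2. The cause of these changes was not tested. With 4 mice a group and control 2 included, the 95% interval of S100a8 held every difference from -1.57 to 0.46.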

Other observations

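The remaining lists describe the tissue around the myeloid cells and gave 0 genes past an adjusted p under 0.05 in limma. In knockouts the endothelial genes had a higher mean for 10 of 10 genes (median difference 0.11, and 0.11 without control 2). That held for 11 of 11 cartilage and bone genes (0.24 and 0.16) and 8 of 8 progenitor and cell division genes (0.22 and 0.09). A lower mean was found for 15 of 19 mature OSN genes and 9 of 12 immature OSN genes. The same was found for 6 of 9 sustentacular and gland genes and 11 of 13 lymphocyte genes. Over all clusters 48.6% had a lower mean in knockouts. Genes of a list were read from the same 8 arrays, so these counts are not replicates. The endothelial mean was lowest of the 8 mice in knockout 3 (-0.29) and between 0.06 and 0.27 in the other knockouts. The genes with the smallest limma p in these lists were S100a5 for mature OSNs (-0.58 ± 0.12 SE, limma adjusted p = 0.459), Trib3 for immature OSNs (-0.20), Aurkb for cell division (0.30), Mcpt8 for mast cells and basophils (-0.27), Prf1 for lymphocytes (-0.16), Tie1 for endothelium (0.12), Krt17 for basal cells (-0.23), Frzb for ensheathing glia (0.20), Foxj1 for ciliated cells (-0.12), Ibsp for bone (0.35), Tnnc2 for muscle (-0.13), Gp9 for platelets (0.03) and Hbb-y for red cells (-0.04). Without control 2 these values were 0.17 for Aurkb, -0.13 for Krt17, -0.08 for Foxj1, 0.22 for Ibsp and 0.01 for Gp9.

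Over all clusters, 229 (1.05%) had a signal in control 2 more than 1 log2 above the median of the other 7 mice and 11 (0.0505%) more than 1 below it. Of the sex-linked genes, the difference was 1.30 for Xist and 0.48 without control 2, and -2.04 for Eif2s3y.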
